A study of Mus musculus with 47 samples.

Results

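Reprogramming clones of 2 classes, titled SC and SI, were compared for how far their messenger RNA moved between 21 and 14 days of doxycycline. The comparison used the libraries titled d21 and d14 of clones SC1 to SC4 and SI1 to SI4, which are 16 of the 47 libraries of the series. For each gene the change of a clone was its log2(RPKM + 1) at d21 minus that at d14, and the 4 SC changes were set against the 4 SI changes with the clone as the unit. RPKM counts reads relative to gene length and library size. All 8 clones came from secondary mouse embryonic fibroblasts, cells that reprogram on doxycycline alone, and all 16 libraries were taken with the drug present and 0 days without it. The labels do not spell out SC or SI, and they give neither the doxycycline-driven genes nor the mouse strain or sex. Secondary iPS cells of the 4 SC clones (21 days with and 6 days without the drug) and 3 libraries of feeder mouse embryonic fibroblasts without the drug served as the ends of a scale and as reference levels. SI clones had no iPS libraries in the design.

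Doxycycline reprogramming drives fibroblasts toward induced pluripotent stem cells by forced expression of transcription factors. Early in the process cells lose mesenchymal genes, take on epithelial ones and divide faster, and late in the process they switch on their own pluripotency genes. Genes such as Lin28a, Dppa5a, Zfp42 and Dnmt3l belong to that late set, whereas the genes for the driving factors are read from the start. A clone that ends the drug with its own pluripotency network running can keep the pluripotent state without the drug.

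The 16 libraries summed to 214028.7 to 236436.8 RPKM, with 11531 to 11918 genes at 1 RPKM or more. Read totals were not given. From the spacing of low values, depth was put at 36.3 to 97.7 megareads (median 62.9) for 14 libraries, or a whole multiple of that, and 1 read in a gene of 1 kb then equals 0.0102 to 0.0275 RPKM. Clones SI1 and SI4 stood apart from the other 6 at d14, as the positions below show. Where a list's median difference is given below, its value without them is added if it moved by over 1.5 times or turned its sign. Further lists moved as well. Without them the median went from -0.24 to 0.02 for BMP genes, -0.26 to 0.07 for leukocyte markers and -0.45 to -0.05 for fibroblast markers. It went from 0.33 to 0.07 for primed epiblast genes, -0.25 to -0.09 for epithelial genes and -0.19 to -0.46 for reprogramming factors. Y-linked genes summed to 0.273 and 0.350 of their d14 level at d21 in SC1 and SC2, and to 0.614 to 2.03 of it in the other 6 clones. The part of this in the results was not tested.

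Each library was placed on the straight line from the feeder mean (0) to the mean of the SC-derived iPS cells (1) over the 12325 genes tested. The end at 1 was uneven: the iPS libraries of SC1 to SC4 stood at 1.06, 0.773, 1.09 and 1.07. SC2 at d21 was thus near its own iPS library, and SC1, SC3 and SC4 at d21 were past that library. Each SC clone shares its origin with an iPS library that sets this end, which no SI clone does. SC1 to SC4 stood at 0.816, 0.755, 0.901 and 0.962 at d21, against 0.409, 0.526, 0.518 and 0.315 at d14. SI1 to SI4 stood at 0.725, 0.745, 0.572 and 0.758 at d21, against 0.720, 0.293, 0.279 and 0.655 at d14. Every SC clone moved by at least 0.228, SI2 and SI3 moved by 0.452 and 0.292, and SI1 and SI4, already past every SC clone at d14, moved by 0.00471 and 0.103. The advance averaged 0.417 ± 0.173 in SC clones and 0.213 ± 0.199 in SI clones (SD, n = 4 each). The difference of 0.204 did not pass the test (exact two-sided permutation test over 70 assignments, p = 0.2, adjusted p = 0.5 over 5 such tests, where 0.0286 is the smallest p possible). It stood at 0.127 without SC4, at 0.134 without SI1 and at 0.0442 without both SI1 and SI4, a setting added after the positions were seen.

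**Figure D1:**
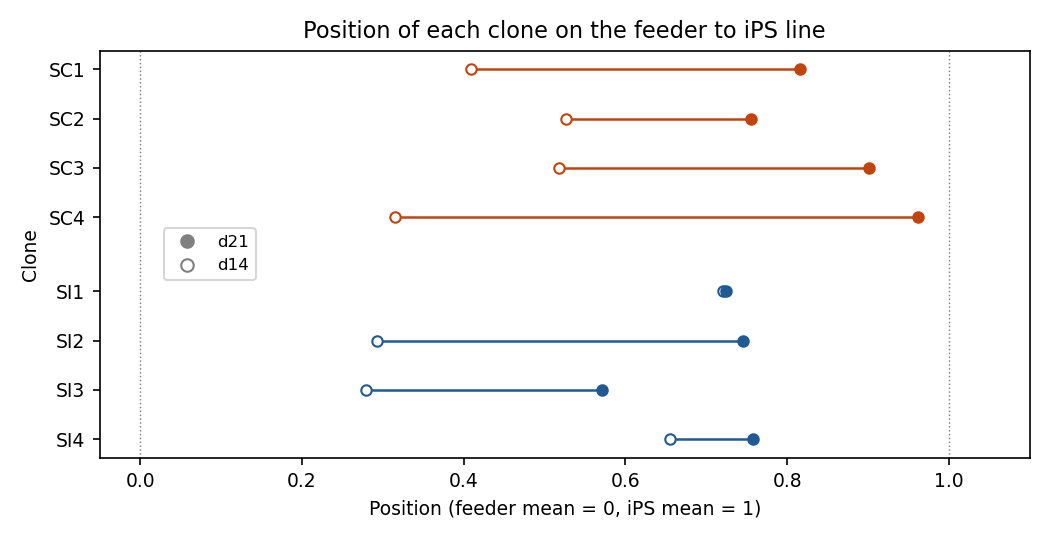
Position of each clone on the line from the feeder mean (0) to the iPS mean (1), with filled points for d21, open points for d14 and a line joining the 2 libraries of a clone (SC clones in orange above SI clones in blue). The SC points run from 0.755 to 0.962 at d21 and from 0.315 to 0.526 at d14. SI1 and SI4 start at 0.720 and 0.655.

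Neither time by itself passed the test. At d21 the mean position was 0.858 ± 0.0916 in SC clones and 0.700 ± 0.0866 in SI clones (SD, n = 4 each, exact two-sided permutation p = 0.0571, adjusted p = 0.286). At d14 it was 0.442 ± 0.1 in SC clones and 0.487 ± 0.233 in SI clones (exact two-sided permutation p = 0.743). The amount of change, whatever its direction, overlapped between the classes. The root mean square change over all genes tested was 0.601, 0.567, 0.641 and 0.843 log2 units in SC1 to SC4 and 0.552, 0.879, 0.556 and 0.394 in SI1 to SI4 (exact two-sided permutation p = 0.543). Genes that changed at least 2-fold numbered 1204, 950, 1284 and 2494 in SC1 to SC4 and 846, 2595, 840 and 300 in SI1 to SI4, so the largest and the smallest count both belonged to SI clones. The mean size was higher in SC clones by 0.0682, and lower by 0.0542 (a difference of -0.0542) when SI1 and SI4 were left out. Across genes, as a description, the change of an SC clone correlated with that of another SC clone at r = 0.600 to 0.861 (6 pairs). The 6 SI pairs ran from -0.141 to 0.766, and the lower end shows SI clones that changed in unlike ways.

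Gene by gene, no class difference passed the test. limma called 0 of 12325 genes (0.0%) for the SC minus SI change at an adjusted p under 0.05, and the smallest adjusted p was 0.390. At an unadjusted p under 0.05 there were 577 genes (4.68%), 377 with a higher change in SC (3.06%) and 200 with a lower one (1.62%). The SC and SI changes did not overlap in 308 genes (2.5%), of which 180 had all SC clones above all SI clones (1.46%) and 128 all SC clones below (1.04%). Changes within a class were numerous. In SC clones 2384 genes rose (19.3%) and 2318 fell (18.8%), and in SI clones 1155 rose (9.37%) and 1048 fell (8.5%). Of the genes that rose in SC, 37.5% rose in SI too, and of those that rose in SI, 77.4% rose in SC. For falls the shares were 41.7% of the SC falls and 92.2% of the SI falls. A gene called in SC and not in SI is not thereby shown to differ between the classes, and the test of that difference is the one with 0 calls. The SI count depended on the setting: it was 848 with no filter on low values and 1 when the clone pairing was dropped, and 491 without SI4 and 562 without SI2. The SC count was 2429 without SC4, 2649 without SC3 and 2707 without SC1. The median gene changed by 0.06 log2 units in SC and 0.04 in SI, with a median difference of -0.03.

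**Figure D2:**
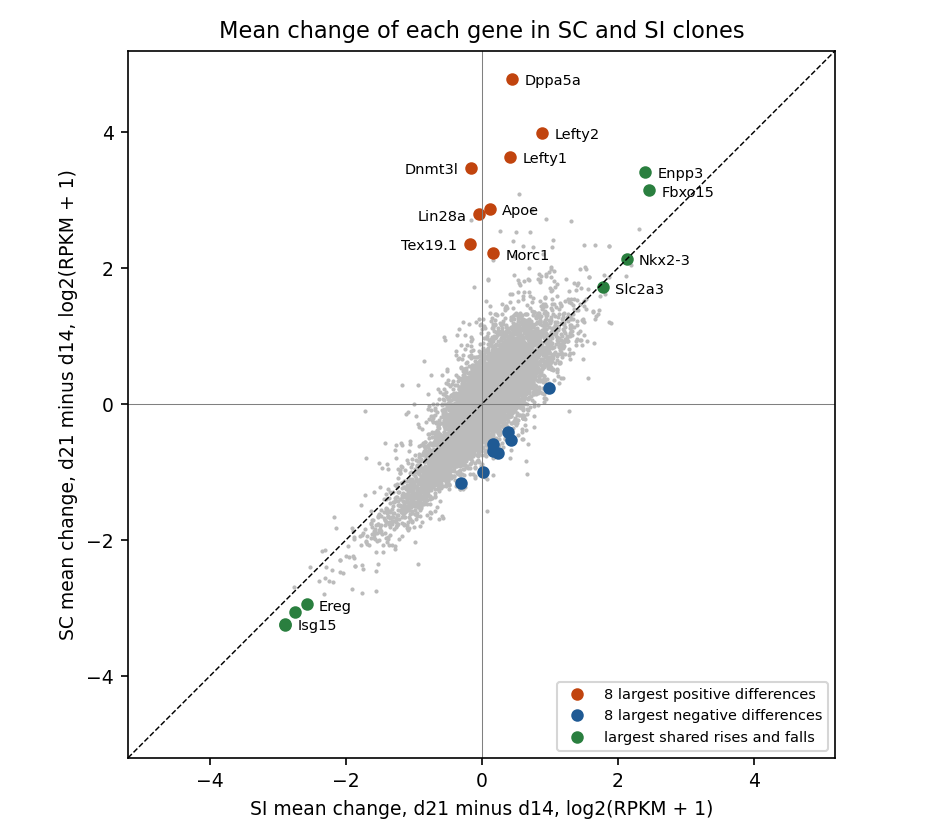
Mean change of each of 12325 genes, d21 minus d14, in log2(RPKM + 1), with SI clones on the horizontal and SC clones on the vertical axis (n = 4 clones each) and the dashed line at equal change. Orange and blue points are the 8 largest positive and 8 largest negative differences among expressed genes whose SC and SI changes do not overlap, and green points are 8 genes with large changes shared by all 8 clones. Dppa5a lies at 4.79 in SC and 0.45 in SI, and Isg15 at -3.23 in SC and -2.89 in SI.

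The genes with the largest positive differences are known from pluripotent stem cells and the germline. They were taken among expressed genes whose SC and SI changes did not overlap, so that lack of overlap is how they were chosen and not a result. The 8 were Dppa5a, Dnmt3l, Lefty1, Lefty2, Lin28a, Apoe, Tex19.1 and Morc1. Lin28a, Dppa5a, Dnmt3l, Tex19.1 and Morc1 passed the filter on low values only through their SC libraries at d21, so these 5 genes were tested only through the group where they are high, and their SC p-values below are a description and no support. Lefty1, Lefty2 and Apoe passed without those libraries and rose in SC clones (limma adjusted p = 0.0022, 0.00166 and 0.00289). None of the 8 passed in SI clones (limma adjusted p = 0.216 to 0.952). Choosing genes by a large positive difference favours a large SC rise and a small SI change. The SC and SI p-values of all 8 are therefore a description and no support. The difference itself had an adjusted p of 0.761 for every one of them. Log2 values throughout are differences of log2(RPKM + 1), which understates the change of weakly expressed genes.

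Lin28a (ENSMUSG00000050966) encodes an RNA-binding protein that blocks let-7 maturation in pluripotent cells. It stood at 20.3, 2.52, 27.2 and 45.1 RPKM at d21 in SC1 to SC4, against 1.5, 0.89, 1.29 and 2.92 RPKM at d14. In SI1 to SI4 it stood at 0.28, 0.08, 0.41 and 0.31 RPKM at d21, against 0.38, 0.1, 0.26 and 0.48 RPKM at d14. Every SI library was under 0.5 RPKM and every SC library above it, and SC2 was the lowest SC clone at d21. The change was log2 2.79 ± 0.37 (SE, limma adjusted p = 0.00221) in SC and -0.04 ± 0.37 (SE, limma adjusted p = 0.952) in SI, a difference of 2.83 ± 0.53 (SE, limma adjusted p = 0.761). Its feeder mean was 0.01 RPKM, and iPS libraries ran from 71.6 to 90.6 RPKM.

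Dppa5a (ENSMUSG00000060461), which encodes an RNA-binding protein of pluripotent cells, showed the widest spread among SC clones. It stood at 71.8, 7.5, 255 and 314 RPKM at d21 in SC1 to SC4, against 5.6, 0.77, 4.54 and 0.32 RPKM at d14. In SI clones no library passed 1.01 RPKM, with 0.56, 0.35, 0.17 and 1.01 RPKM at d21 and 0.36, 0.06, 0 and 0 RPKM at d14 in SI1 to SI4. SC3 and SC4 reached the iPS range of 276 to 489 RPKM or came near it, whereas SC2 stood far under it. The difference in change was log2 4.34 ± 1.00 (SE, limma adjusted p = 0.761). Near-identical Dppa5 copies exist in the mouse genome, and how the authors' counting treated them is not given in the sources used here.

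Lefty1 and Lefty2 encode secreted inhibitors of Nodal, a TGF-beta family ligand that acts in early embryos and stem cells. Lefty1 (ENSMUSG00000038793) stood at 19.15, 3.08, 40.9 and 67.0 RPKM at d21 in SC1 to SC4, against 0.63, 0.55, 0.85 and 1.1 RPKM at d14. The levels in SI1 to SI4 were 1.48, 1.37, 1.69 and 0.75 RPKM at d21, against 1.99, 0.45, 0.49 and 0.35 RPKM at d14. All SC clones stood above all SI clones at d21, and the classes overlapped at d14. Lefty2 (ENSMUSG00000066652) stood at 47.7, 9.16, 115 and 159 RPKM at d21 in SC clones, against 2.47, 1.42, 3.62 and 2.64 RPKM at d14. It reached 2.16, 2.31, 3.02 and 2.48 RPKM at d21 in SI clones, against 2.68, 0.19, 0.21 and 1.36 RPKM at d14, so that SI2 and SI3 moved up and SI1 did not. The differences in change were log2 3.22 ± 0.68 (SE, limma adjusted p = 0.761) for Lefty1 and 3.11 ± 0.69 (SE, limma adjusted p = 0.761) for Lefty2. The 2 genes are close paralogs and may share reads.

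**Figure D3:**
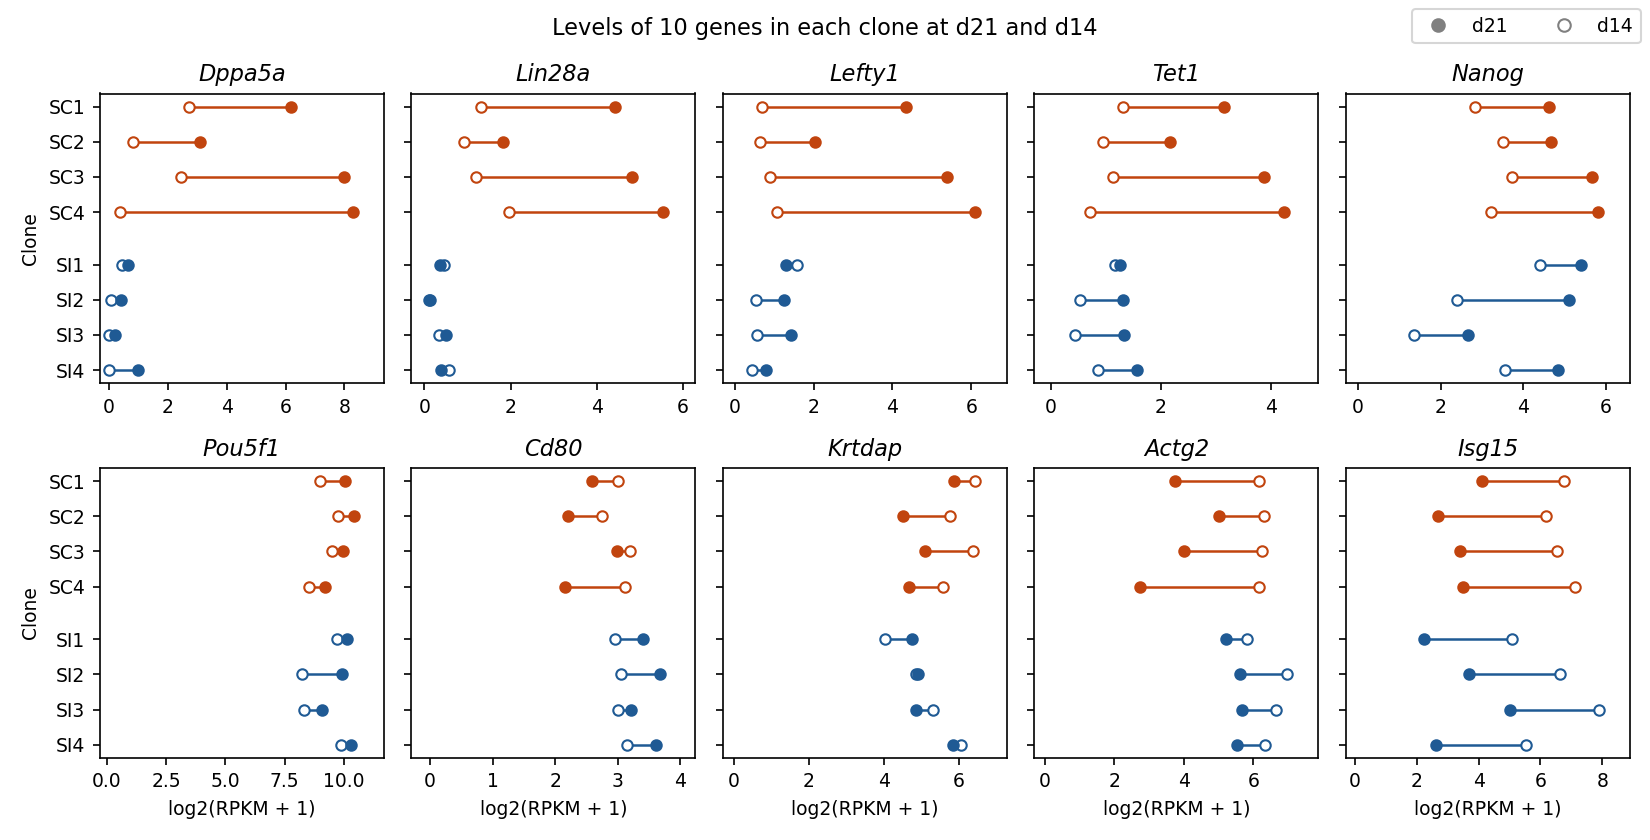
Levels of 10 genes in each clone as log2(RPKM + 1), with filled points for d21, open points for d14 and a line joining the 2 libraries of a clone (SC clones in orange above SI clones in blue). In Dppa5a, Lin28a and Lefty1 the SC lines are long and the SI lines short, in Cd80 the SC and SI lines run in opposite directions, and in Isg15 all 8 lines run down by 2.63 to 3.63 log2 units.

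DNA methylation genes were among the widest differences. Dnmt3l (ENSMUSG00000000730), the catalytically inactive partner of the de novo methyltransferases, stood at 15.3, 1.41, 48.8 and 75.2 RPKM at d21 in SC1 to SC4, against 1.25, 0.32, 0.81 and 0.82 RPKM at d14. SI1 to SI4 had 0.05, 0.07, 0.42 and 0.15 RPKM at d21, against 0.13, 0.48, 0.42 and 0.21 RPKM at d14. No SI library reached 0.5 RPKM, and the SC levels at d21 spanned 1.41 to 75.2 RPKM. The differences in change were log2 3.63 ± 0.83 (SE, limma adjusted p = 0.761) for Dnmt3l, 2.86 ± 0.76 (SE, limma adjusted p = 0.761) for the methyltransferase gene Dnmt3b and 1.71 ± 0.44 (SE, limma adjusted p = 0.761) for Tet1, which encodes a 5-methylcytosine dioxygenase (limma adjusted p = 0.761 each). Tet1 stood at 7.85, 3.5, 13.5 and 17.8 RPKM at d21 in SC clones, against 1.48, 0.93, 1.2 and 0.64 RPKM at d14, and at 1.39, 1.47, 1.52 and 1.97 RPKM at d21 in SI clones, against 1.25, 0.45, 0.36 and 0.81 RPKM at d14. Dnmt3b overlapped between the classes, since its SC2 change of 0.47 was under the SI3 change of 0.76. Dnmt3a rose in each class, by 1.29 in SC and 1.02 in SI, and Dnmt1 rose in SC by 0.74 and stood at 0.31 in SI (not past the threshold). Over the 13 tested of 14 genes of DNA methylation and demethylation, 6 rose and 1 fell in SC, 1 rose and 0 fell in SI, and 3 had SC changes all above the SI changes. Among all genes 19.3% rose and 18.8% fell in SC, 9.37% rose and 8.5% fell in SI, and 1.46% had SC changes all above. Of the 13 differences 7 were positive, with a median of 0.27 (0.18 with no filter, 0.16 without SI1 and SI4). The mean change of this list was 0.89, 0.51, 1.06 and 1.27 in SC1 to SC4 and 0.03, 0.39, 0.32 and 0.18 in SI1 to SI4. It was the 1 list of 28 in which the mean changes of the classes did not overlap, against 2.5% of all genes, and its mean was moved most by Dnmt3l, Dnmt3b and Tet1. 1 of the 13 genes passed the filter through its SC levels at d21.

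The other 3 genes of the largest positive differences are less tied to a single pathway. Apoe, a lipid carrier that is abundant in mouse embryonic stem cells, stood at 30.0, 5.55, 98.8 and 95.9 RPKM at d21 in SC1 to SC4, against 4.17, 2.66, 5.03 and 5.05 RPKM at d14. In SI clones it ranged from 3.53 to 4.38 RPKM at d21 and from 2.2 to 4.59 RPKM at d14. Tex19.1 and Morc1, germline genes that act on retrotransposons in mice, differed in change by log2 2.54 ± 0.81 (SE, limma adjusted p = 0.761) and 2.05 ± 0.54 (SE, limma adjusted p = 0.761). SC2 had the smallest change of the 4 SC clones in 8 of the 8 genes, and its d21 level was the lowest SC level in 8 of 8. Without SC2, limma called 6 genes with a higher change in SC and 0 with a lower one. They were Lin28a (difference 3.46, adjusted p = 0.000529), Trh (3.08, adjusted p = 0.00276), Lefty1 (3.97, adjusted p = 0.0135), Apoe (3.43, adjusted p = 0.0317), Slc7a7 (2.08, adjusted p = 0.0317) and Dnmt3l (4.5, adjusted p = 0.0334). Trh encodes the thyrotropin-releasing hormone precursor and Slc7a7 an amino acid transporter subunit, and these 2 were named after their values were seen. SC2 had the smallest SC change in each of these 6 genes, so leaving it out raised the difference and narrowed the SC spread. The calls are thus a description and no support. Lin28a and Dnmt3l were moreover tested only through SC libraries at d21. At d21 SC2 had a fibroblast marker sum of 1124 RPKM, against 836 to 1099 RPKM in the other SC clones, and its part in the low levels was not tested.

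Pou5f1, Sox2, Klf4 and Myc, the factors most often used for reprogramming, and Nanog did not follow the late genes. Pou5f1 (Oct4) stood at 1047, 1385, 997 and 589 RPKM at d21 in SC1 to SC4, against 512, 869, 719 and 369.9 RPKM at d14. Among SI clones (SI1 to SI4) the values were 1111, 978, 539 and 1265 RPKM at d21, against 844, 301, 319 and 936 RPKM at d14. It rose in each class, by log2 0.71 ± 0.21 (SE, limma adjusted p = 0.0274) in SC and 0.82 ± 0.21 (SE, limma adjusted p = 0.0325) in SI, and the levels of the classes overlapped at both times. The values do not separate reads of an endogenous gene from those of a doxycycline-driven copy, and Pou5f1 in iPS cells, without the drug, ran from 239.8 to 406 RPKM. Sox2, its DNA-binding partner, rose in SC by 0.82 ± 0.21 (SE, limma adjusted p = 0.0142) and stood at 0.51 ± 0.21 (SE, limma adjusted p = 0.107) in SI. Klf4 passed in neither class (0.18 in SC and 0.45 in SI), and Myc fell in SC by 0.59 (adjusted p = 0.0271) and stood at -0.14 in SI. Nanog stood at 23.8, 24.5, 50.1 and 55.0 RPKM at d21 in SC1 to SC4, against 6.11, 10.4, 12.3 and 8.35 RPKM at d14. In SI1 to SI4 it stood at 41.1, 33.4, 5.32 and 27.8 RPKM at d21, against 20.1, 4.26, 1.56 and 10.8 RPKM at d14. It rose in each class, by 1.87 ± 0.28 (SE, limma adjusted p = 0.00275) in SC and 1.57 ± 0.28 (SE, limma adjusted p = 0.0164) in SI, with a difference of 0.30 ± 0.40 (SE, limma adjusted p = 0.805). SI3 was the lowest library of its time at d21 and at d14. Esrrb, a nuclear receptor of the naive state, passed in neither class (0.95 in SC and 0.73 in SI, difference 0.22 ± 0.56 (SE, limma adjusted p = 0.894)), and its change ran from -0.57 in SC2 to 2.21 in SC4.

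Of 21 regulators of the naive pluripotent state, 19 were tested, and 10 rose in SC and 4 in SI (Nanog, Fbxo15, Gdf3 and Sall1), with none falling in either class. Among all genes 19.3% rose in SC and 9.37% in SI. The median change of the 19 was 1.41 in SC and 0.72 in SI, and the median difference was 0.69, against -0.03 over all genes. Without SI1 and SI4 the median difference was 0.27, and 14 of the 19 differences were positive. With all clones the 19 differences were positive, 5 of them at an unadjusted p under 0.05 (Zfp42, Klf2, Klf5, Zscan10 and Sall1), and none had SC changes clear of the SI changes. Sall1, a zinc finger factor, rose in SC by 2.00 ± 0.21 (SE, limma adjusted p = 0.00129) and in SI by 1.03 ± 0.21 (SE, limma adjusted p = 0.0199). Zfp42 (Rex1, ENSMUSG00000051176), a zinc finger gene used as a marker of naive cells, stood at 22.7, 3.66, 63.0 and 117 RPKM at d21 in SC1 to SC4, against 2.47, 1.44, 4.6 and 2.34 RPKM at d14. The levels in SI1 to SI4 were 3.0, 3.16, 0.68 and 1.43 RPKM at d21, against 1.36, 0.55, 0.83 and 1.22 RPKM at d14. The groups overlapped through SC2, whose change of 0.93 lay under the 1.42 of SI2. The difference was log2 2.54 ± 0.76 (SE, limma adjusted p = 0.761). Its promoter is shown because it holds the octamer ATGCAAAT (here on the other strand, ATTTGCAT, in capitals), the DNA element that Oct4 is known to bind. The window, from RefSeq on GRCm38.p6, is chr8:43306960-43307259 on the minus strand, 250 bases before to 50 bases after the start of the gene.
Zfp42: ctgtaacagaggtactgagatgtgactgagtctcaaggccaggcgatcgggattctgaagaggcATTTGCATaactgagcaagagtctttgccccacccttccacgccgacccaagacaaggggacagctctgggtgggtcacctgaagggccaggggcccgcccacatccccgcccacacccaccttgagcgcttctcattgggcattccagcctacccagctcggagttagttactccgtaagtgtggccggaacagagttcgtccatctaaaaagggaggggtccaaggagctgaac
The octamer was found 179 to 186 bases before the start site. On either strand it was present in 2 of 13 naive regulators with a window (15.4%, Zfp42 and Zfp296), in 0 of 10 late pluripotency genes and in 1.97% of 27025 genes. A match of letters is a description and no sign that Oct4 bound there.

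Late pluripotency genes had the largest median difference of the 30 lists. Of 18 members 13 were tested, 2 of them through their SC levels at d21 alone. The shares of all genes that rose were 19.3% in SC and 9.37% in SI. In SC 9 rose and in SI 1 did (Alpl, the tissue-nonspecific alkaline phosphatase, by 1.01), and the median difference was 1.38, or 1.44 with no filter over all 18, and 0.91 without SI1 and SI4. Beside Lin28a and Dppa5a, the SC rises included Utf1 (2.86, against 0.74 in SI), Trim71 (1.33, against 0.20), Mybl2 (1.91, against 0.48) and Upp1 (2.72, against -0.16). Tdh and Epha2 passed in neither class. Dppa4 and Dppa2, nuclear proteins of pluripotent cells, did not pass the filter. Dppa4 stood at 5.38, 0.65, 13.95 and 24.26 RPKM at d21 in SC1 to SC4, against 0.52, 0.11, 0.71 and 0.02 RPKM at d14. In SI1 to SI4 it stood at 0.09, 0.05, 0.07 and 0.21 RPKM at d21, against 0.1, 0.03, 0.02 and 0.11 RPKM at d14. SC2 was again the lowest SC clone, and every SI library was under 0.22 RPKM.

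Signalling lists are read against the shares of all genes called, 19.3% rising and 18.8% falling in SC and 9.37% and 8.5% in SI. In the Nodal and Lefty list, 6 of 13 tested genes rose in SC and 1 in SI. Foxh1, the DNA-binding partner of Smad2 and Smad3, rose in SC by 1.82 and stood at 0.54 in SI. Tdgf1, the Nodal co-receptor Cripto, rose in SC by 2.69 and stood at 1.31 in SI, and Gdf3, a related ligand, rose in each class. Nodal itself did not pass the filter: it stood at 3.77, 0.64, 6.6 and 11.16 RPKM at d21 in SC1 to SC4, against 0.66, 0.16, 0.93 and 0.53 RPKM at d14, and no SI library passed 0.82 RPKM. Among the receptors Acvr2b rose by 0.86 and Acvr2a fell by 0.38 in SC, and the signal transducer Smad2 stood at -0.04 in SC and -0.03 in SI. The median difference of the 13 was -0.01, near the -0.03 of all genes, or 0.08 without SI1 and SI4. In the FGF list, Fgf15, a growth factor of the early embryo, stood at 3.28, 1.52, 2.45 and 3.42 RPKM at d21 in SC1 to SC4, against 0.23, 0.28, 0.22 and 0.7 RPKM at d14. It ran from 0.4 to 0.95 RPKM at d21 in SI clones and from 0.04 to 0.83 RPKM at d14, and the difference in change was 1.04 ± 0.27 (SE, limma adjusted p = 0.761). Fgf15 reached 1 RPKM only in the 4 SC libraries at d21, so it was tested only through the group where it is high. The receptor gene Fgfr1 fell in SC by 0.68 and stood at -0.14 in SI, with all SC changes under all SI changes. Fgf2 and Fgf7, ligands made by fibroblasts, fell in each class, and Spry4 and Etv5, which respond to ERK signalling, rose in each. Over the 14 tested FGF and ERK genes, 4 rose and 3 fell in SC and 2 rose and 2 fell in SI, shares not far from those of all genes. Of 16 genes of BMP signalling, 1 rose and 4 fell in SC, and 1 rose and 3 fell in SI. Bmp4 rose in SC by 0.56 and stood at -0.04 in SI, while Id3 and the BMP antagonist Grem1 fell in each class. Of 6 tested primed epiblast genes, 3 rose and 1 fell in SC and 1 rose in SI.

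Cell division genes rose in SC in larger shares than the 19.3% of all genes that did so. In SI 9.37% of all genes rose. All 22 mitosis genes rose in SC and 3 in SI (Ccnb2, Cenpf and Mki67), and all 22 differences were positive with a median of 0.49. These differences rested on SI1 and SI4: without them 8 of 22 were positive, with a median of -0.08, and the mean change was 1.06 in SC clones and 1.11 in SI2 and SI3. Top2a, the topoisomerase that untangles replicated DNA, stood at 72.1, 66.2, 105 and 115 RPKM at d21 in SC1 to SC4, against 28.9, 29.4, 34.0 and 21.9 RPKM at d14. SI1 to SI4 had 55.9, 53.7, 46.9 and 55.6 RPKM at d21, against 61.8, 23.3, 17.2 and 42.1 RPKM at d14. SI2 and SI3 moved up by 1.17 and 1.40 log2 units, within the SC range, and SI1 and SI4 moved by -0.14 and 0.39, so the SI clones split as they did on the line from feeders to iPS cells. The mean mitosis level at d21 was 4.92 to 5.08 in SC clones and 4.61 to 4.73 in SI clones, and at d14 it was 3.59 to 4.19 in SC clones and 3.41 to 4.86 in SI clones. Of 25 DNA replication genes, 16 rose in SC and 1 in SI (Rrm1, a ribonucleotide reductase subunit), and all 25 differences were positive (median 0.56). Without SI1 and SI4, 15 of the 25 were positive with a median of 0.01. Mcm3, a subunit of the replicative helicase, stood at 92.1, 62.4, 94.4 and 132 RPKM at d21 in SC1 to SC4, against 35.4, 39.8, 44.6 and 27.0 RPKM at d14. It stood at 33.3, 42.3, 64.4 and 47.9 RPKM at d21 in SI1 to SI4, against 69.5, 26.9, 23.7 and 52.5 RPKM at d14, a difference in change of 1.11 ± 0.51 (SE, limma adjusted p = 0.761). None of the 47 differences in the mitosis and replication lists passed, and 1 of them (Top2a) had an unadjusted p under 0.05, against 4.68% of all genes. When SI1 and SI4 were left out, the difference was 0.31 for Mcm3 and 0.31 for Top2a, and without SI1 alone it was 0.69 and 0.61.

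Inhibitors of the cell cycle and p53 targets moved in both directions, with more falls than rises in SC. Cdkn2a, the Ink4a/Arf locus that limits reprogramming, stood at 24.3, 24.5, 33.7 and 30.7 RPKM at d21 in SC1 to SC4, against 39.1, 39.3, 55.8 and 41.9 RPKM at d14. Among SI clones (SI1 to SI4) the values were 32.3, 46.0, 36.6 and 42.1 RPKM at d21, against 39.7, 35.3, 43.1 and 46.2 RPKM at d14. It fell in SC by log2 0.62 ± 0.13 (SE, limma adjusted p = 0.00674) and stood at -0.07 ± 0.13 (SE, limma adjusted p = 0.717) in SI, with every SC change under every SI change and a difference of -0.55 ± 0.18 (SE, limma adjusted p = 0.761). The p53 target Ccng1 fell in SC by 0.73 and stood at -0.18 in SI, also without overlap, and Cdkn1a (p21) fell in SC by 0.71 and stood at 0.15 in SI. Mdm2 and Cdkn2b fell in each class, and Cdkn1b (p27), Bbc3 and Sesn1 rose in each. Of the 20 genes of this list 3 rose and 7 fell in SC and 3 rose and 2 fell in SI. Over all genes 19.3% rose and 18.8% fell in SC, and 9.37% rose and 8.5% fell in SI. SC changes lay all under the SI changes in 2 of the 20 and all above in 1, against 1.04% and 1.46% of all genes. The median difference was -0.27, or -0.17 without SI1 and SI4.

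Polycomb genes rose in SC in 12 of 22 cases and in SI in 3, with 1 fall in SC (Phc2) and a median difference of 0.22, or 0.01 without SI1 and SI4. Mtf2, an accessory subunit of PRC2, rose in SC by 1.29 ± 0.24 (SE, limma adjusted p = 0.00487) and stood at 0.43 ± 0.24 (SE, limma adjusted p = 0.223) in SI, and Cbx7, a PRC1 subunit, rose in SC by 1.79 and stood at 0.86 in SI. Only 6 of 19 germline genes in the table passed the filter, 2 of them through SC levels at d21. The helicase gene Hells rose in SC by 1.17 and stood at -0.03 in SI. Sycp1 passed the filter only with its SC libraries at d21 counted, so its SC change of 0.39 is a description and no support. Among those under the filter, Mael, which acts in the piRNA pathway of the germline, stood at 0.72, 0.09, 6.76 and 7.07 RPKM at d21 in SC1 to SC4 and at 0.12 RPKM or under in the other 12 libraries. Of 14 tested imprinted genes 2 rose and 4 fell in SC and 2 rose and 3 fell in SI, where 19.3% and 18.8% of all genes did so in SC and 9.37% and 8.5% in SI, with Igf2 falling in each class, by 1.39 in SC and 0.85 in SI. Of 21 glycolysis genes 9 rose in SC and 4 in SI, and the hexokinase gene Hk2 rose in SC by 0.82 and stood at 0.32 in SI, with no overlap of the changes. Of 19 genes of serine, glycine and one-carbon metabolism 1 rose and 2 fell in SC and 0 rose and 3 fell in SI, with a median difference of 0.29, or -0.03 without SI1 and SI4. None of 20 ribosome biogenesis genes passed in either class. All 20 of their differences were positive, with a median of 0.50, a median change of 0.22 in SC and -0.30 in SI, and no gene at an unadjusted p under 0.05. Without SI1 and SI4 the direction turned, with 6 of 20 positive and a median difference of -0.07.

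**Figure D4:**
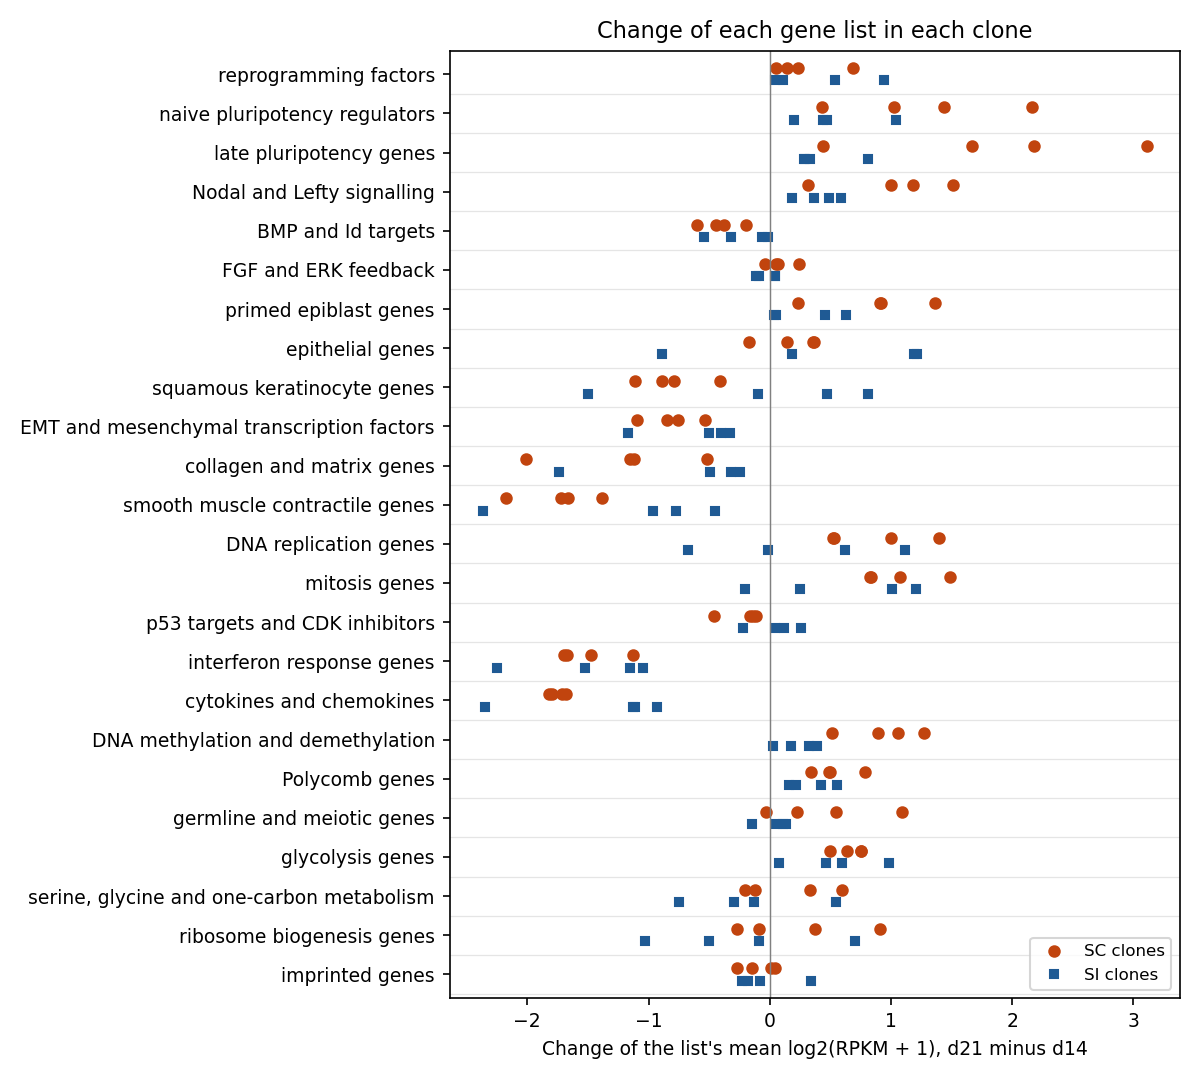
Change of the mean log2(RPKM + 1) over the tested members of each gene list, d21 minus d14, with 1 point per clone (orange circles SC, blue squares SI) and a line at no change. The classes are apart in the DNA methylation list (0.51 to 1.27 in SC, 0.03 to 0.39 in SI), overlap in every other list drawn, and all 8 clones are under 0 for interferon response and cytokine genes.

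Among expressed genes whose changes did not overlap, the 8 largest negative differences ran from -1.02 to -0.75 log2 units and came from genes with varied roles. Genes with overlap reached lower, such as Pkp1 at -1.48. The lack of overlap is how the 8 were chosen and not a result, and the choice favours an SC fall and an SI rise. The SC and SI p-values of all 8 are therefore a description and no support. Cd80 (ENSMUSG00000075122) encodes a costimulatory surface protein known from antigen-presenting cells. It was the 1 gene of 12325 that passed the threshold both as a fall in SC and as a rise in SI, the latter narrowly. Rtkn, Wdr54 and Sytl2 also moved down in SC and up in SI on average, and passed in SC alone. Cd80 stood at 5.0, 3.62, 6.95 and 3.45 RPKM at d21 in SC1 to SC4, against 7.02, 5.73, 8.13 and 7.69 RPKM at d14. In SI1 to SI4 it stood at 9.65, 11.8, 8.29 and 11.3 RPKM at d21, against 6.74, 7.33, 7.06 and 7.85 RPKM at d14. At d21 all SC libraries were under all SI libraries, and at d14 the classes overlapped. The change was log2 -0.53 ± 0.13 (SE, limma adjusted p = 0.0141) in SC and 0.44 ± 0.13 (SE, limma adjusted p = 0.0498) in SI, a difference of -0.97 ± 0.19 (SE, limma adjusted p = 0.761). Leukocyte markers summed to 90.8 to 117 RPKM at d21 in SC clones and 101 to 146.5 RPKM in SI clones, and to 119 to 205 RPKM at d14 in SC clones and 72.1 to 189 RPKM in SI clones. Feeders held 190.0 to 203 RPKM of them, and Cd80 stood at 8.08 ± 0.38 RPKM there (SD, n = 3). Of the 10 leukocyte markers 8 reached 1 RPKM in some library at d21 and 9 at d14 in each class, none was at 0 in every library of a group, and the pan-leukocyte marker Ptprc stood at 0.08 to 0.64 RPKM in the 16 libraries. The part of such cells in the Cd80 values was not tested.

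Krtdap (ENSMUSG00000074199), a keratinocyte differentiation gene, stood at 57.1, 21.7, 33.4 and 24.3 RPKM at d21 in SC1 to SC4, against 85.4, 53.1, 82.2 and 46.4 RPKM at d14. The levels in SI1 to SI4 were 25.7, 28.9, 27.7 and 56.3 RPKM at d21, against 15.2, 27.9, 39.0 and 65.7 RPKM at d14. The levels of the classes overlapped at d21 and at d14, and every SC clone moved down, while SI1 and SI2 moved up. The difference in change was -1.02 ± 0.27 (SE, limma adjusted p = 0.761). Prnp, the prion protein gene, fell in SC by 1.16 ± 0.19 (SE, limma adjusted p = 0.00349) and stood at -0.30 ± 0.19 (SE, limma adjusted p = 0.296) in SI. Sytl2 (a vesicle trafficking protein), Rtkn, Wdr54 and Efnb1 (an ephrin ligand) differed by -0.95, -0.86, -0.75 and -0.79. Rtkn and Wdr54 are neighbours whose reads may be shared. Nat8f6 rose in SI by 0.99 and stood at 0.24 in SC, and it has close paralogs. Of 13 tested squamous keratinocyte genes 6 fell in SC, and 1 rose and 1 fell in SI. Over all genes 18.8% fell in SC, and 9.37% rose and 8.5% fell in SI. All 13 differences were negative with a median of -0.69, 1 of them at an unadjusted p under 0.05 (Krt13), and the median was -0.27 without SI1 and SI4. The basal keratins Krt14 and Krt5 stood at -1.73 (a fall) and -0.78 (not past the threshold) in SC and at -0.88 and -0.18 in SI (neither past the threshold). The SI clones ran from -1.50 to 0.81 in the mean change of this list, with the SC clones from -1.11 to -0.41 inside that range. The mean change of the epithelial list ran from -0.17 to 0.36 in SC clones and more widely, from -0.89 to 1.22, in SI clones. E-cadherin (Cdh1) ran from -1.03 to 0.75 in SC and from -1.37 to 0.94 in SI. Of 25 epithelial genes 2 rose and 2 fell in SC and 2 rose in SI, with Cldn3 and Tjp3 rising in each. The shares of all genes were 19.3% rising and 18.8% falling in SC and 9.37% rising in SI.

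Mesenchymal genes fell in most cases in SC and in fewer in SI. The shares of all genes that fell were 18.8% in SC and 8.5% in SI. Of 30 collagen and matrix genes, 26 fell in SC and 7 in SI, and all 30 differences were negative (median -0.48, none at an unadjusted p under 0.05). Without SI1 and SI4 the median was -0.10 and 9 of the 30 were positive. Col1a1, the main fibrillar collagen chain, stood at 307, 366, 279 and 175 RPKM at d21 in SC1 to SC4, against 816, 618, 783 and 1118 RPKM at d14. SI1 to SI4 had 414, 376, 665 and 310.5 RPKM at d21, against 468, 1309.6, 1059 and 402 RPKM at d14. SI1 and SI4 were already low at d14, and SI2 fell by 1.8, more than SC1, SC2 and SC3. Smooth muscle contractile genes fell in 14 of 16 cases in SC and 11 in SI, with a median difference of -0.55, or 0.02 without SI1 and SI4. Actg2, a smooth muscle actin, stood at 12.4, 31.3, 15.1 and 5.68 RPKM at d21 in SC1 to SC4, against 71.1, 78.3, 75.6 and 70.6 RPKM at d14. Among SI clones (SI1 to SI4) the values were 36.3, 48.0, 49.5 and 45.2 RPKM at d21, against 55.0, 124, 99.0 and 78.8 RPKM at d14. It fell in each class, by 2.35 ± 0.28 (SE, limma adjusted p = 0.00151) in SC and 0.93 ± 0.28 (SE, limma adjusted p = 0.0470) in SI, with a difference of -1.42 ± 0.39 (SE, limma adjusted p = 0.761). The changes of the classes overlapped only in SC2 (-1.30) and SI2 (-1.35). Acta2 fell by 2.74 in SC and 1.55 in SI. Of 17 mesenchymal transcription factors 14 fell in SC and 8 in SI (median difference -0.33, or 0.00 without SI1 and SI4), including Snai2, Twist1, Twist2, Zeb2 and Prrx1 in each class, while Foxd1 and Gli2 rose in SC. Gli2, a Hedgehog effector, rose by 0.62 in SC and stood at -0.22 in SI with no overlap of the changes, and Foxc1 fell in SC by 0.70 with -0.17 in SI.

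The sum of 10 fibroblast markers moved with these lists. It was 836 to 1124 RPKM at d21 in SC clones, against 1680 to 3372 RPKM at d14, and 898 to 2073 RPKM at d21 in SI clones, against 1114 to 3369 RPKM at d14. Feeders held 4029 to 4352 RPKM. The d21 sum was 0.443, 0.669, 0.413 and 0.248 of the d14 sum in SC1 to SC4 and 0.886, 0.311, 0.681 and 0.806 of it in SI1 to SI4. In these bulk libraries fewer fibroblasts and less of this RNA per cell cannot be told apart, and whether feeder RNA entered the clone libraries was not tested. Neural markers summed to 20.6 to 35.5 RPKM at d21 in SC clones and 18.1 to 34.4 RPKM in SI clones, against 30.4 to 37.0 RPKM at d14 in SC clones and 26.6 to 36.3 RPKM in SI clones. The sum of 7 endothelial markers rose in every clone, from 3.73 to 7.5 RPKM at d14 to 5.82 to 19.4 RPKM at d21. It was 1.15 to 1.27 RPKM in feeders. Among them Pecam1 stood at 1.03, 0.19, 9.08 and 12.46 RPKM at d21 in SC1 to SC4. In SI clones Pecam1 was at 0.13 RPKM or under. The members did not all rise: Cdh5 and Kdr moved down in all 8 clones, at 0.45 RPKM or under in each clone library. Skeletal muscle markers summed to 3.42 to 7.43 RPKM over the clones at d21, under the 17.9 to 18.6 RPKM of feeders.

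Changes shared by the classes were led by a fall of interferon response genes. Isg15, Usp18, Ifit1 and Ereg were chosen for a large fall in all 8 clones, so that fall is how they were chosen and not a result. The SC and SI p-values of these 4 genes are a description and no support. Isg15 (ENSMUSG00000035692), an interferon-induced ubiquitin-like protein, stood at 16.4, 5.48, 9.47 and 10.2 RPKM at d21 in SC1 to SC4, against 106, 71.7, 92.7 and 137 RPKM at d14. In SI1 to SI4 it stood at 3.68, 12.0, 31.4 and 5.16 RPKM at d21, against 32.7, 98.1, 238 and 44.8 RPKM at d14. Every clone fell, by 2.63 to 3.63 in SC and by 2.85 to 2.93 in SI, although the SI levels at d14 ran from 32.7 to 238 RPKM. limma gave log2 -3.23 ± 0.15 (SE, limma adjusted p = 3.61e-05) in SC and -2.89 ± 0.15 (SE, limma adjusted p = 0.000101) in SI, with a difference of -0.34 ± 0.22 (SE, limma adjusted p = 0.761). Usp18, the protease that removes Isg15, fell by 3.24 ± 0.20 (SE, limma adjusted p = 0.000116) in SC and 2.89 ± 0.20 (SE, limma adjusted p = 0.000335) in SI, and Ifit1, an RNA-binding antiviral protein, by 3.06 ± 0.22 (SE, limma adjusted p = 0.000322) and 2.74 ± 0.22 (SE, limma adjusted p = 0.00101). Of 20 tested interferon response genes 16 fell in SC and 17 in SI and none rose, against falls of 18.8% and 8.5% of all genes. Their median change was -1.40 in SC and -1.34 in SI. The median difference was -0.10, or 0.27 without SI1 and SI4. The sensor gene Ifih1 and the transcription factor genes Stat2, Irf7 and Irf9 fell in each class, while Oas1a and Ddx58 passed in neither. Gbp2 fell in SI by 1.70 and stood at -0.79 in SC. Feeders had Isg15 at 171 ± 4.5 RPKM (SD, n = 3), above every clone library except SI3 at d14.

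The promoters of Isg15 and Ifit1 are shown because they carry the core of the interferon response element, 2 GAAA blocks with any 2 bases between them, in capitals. They are RefSeq windows on GRCm38.p6, from 250 bases before to 50 bases after the start of the gene, Isg15 at chr4:156200769-156201068 on the minus strand and Ifit1 at chr19:34640639-34640938 on the plus strand, where the core lies on the other strand and reads as TTTC blocks.
Isg15: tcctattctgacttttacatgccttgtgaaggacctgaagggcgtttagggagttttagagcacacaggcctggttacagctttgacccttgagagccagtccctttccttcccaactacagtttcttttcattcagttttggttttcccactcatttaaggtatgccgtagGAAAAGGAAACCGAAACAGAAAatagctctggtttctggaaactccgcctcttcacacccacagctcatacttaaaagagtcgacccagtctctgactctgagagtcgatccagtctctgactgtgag
Ifit1: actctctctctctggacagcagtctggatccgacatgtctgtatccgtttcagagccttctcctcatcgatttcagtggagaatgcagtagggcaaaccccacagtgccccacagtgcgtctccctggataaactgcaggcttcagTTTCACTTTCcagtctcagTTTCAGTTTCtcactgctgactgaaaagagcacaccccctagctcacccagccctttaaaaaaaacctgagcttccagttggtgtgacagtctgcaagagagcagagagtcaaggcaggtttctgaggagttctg
The Isg15 window holds 3 overlapping matches 57 to 78 bases before the start site, and the Ifit1 window 2 separate matches at 76 to 85 and 95 to 104 bases before it. On either strand, 11 of 17 interferon list genes with a window held the core (64.7%), against 3.99% of 27025 genes. These matches are a description of the letters and do not show binding.

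Cytokine and chemokine genes fell with them. Of 19 tested, 18 fell in SC and 17 in SI, against 18.8% and 8.5% of all genes. Their median change was -1.69 in SC and -1.07 in SI. The median difference was -0.35, or -0.08 without SI1 and SI4. The mean change of the list was within a narrow range in SC clones (-1.82 to -1.68) and a wide one in SI clones (-2.35 to -0.93). Il6, Cxcl1 and Ccl2 fell by 2.40, 2.80 and 2.40 in SC and by 2.29, 2.32 and 2.53 in SI. Lif, a cytokine that sustains mouse embryonic stem cells, fell by 1.98 in SC and 1.37 in SI. Csf3 stood at 0.49, 0.12, 0.13 and 0.48 RPKM at d21 in SC1 to SC4, against 3.54, 2.95, 2.43 and 3.85 RPKM at d14. The levels in SI1 to SI4 were 0.03, 0.08, 0.63 and 0.16 RPKM at d21, against 0.26, 2.43, 3.2 and 1.17 RPKM at d14, a difference in change of -0.63 ± 0.27 (SE, limma adjusted p = 0.761). SI1 was already at 0.26 RPKM at d14, and the difference was -0.37 without SI1 and -0.17 without SI1 and SI4. Ereg, an EGF receptor ligand, fell by 2.94 ± 0.29 (SE, limma adjusted p = 0.00129) in SC and 2.57 ± 0.29 (SE, limma adjusted p = 0.00631) in SI.

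Rises shared by all 8 clones were led by Enpp3, Fbxo15, Slc2a3 and Nkx2-3. These genes were chosen for a large rise in all 8 clones, so their SC and SI p-values are a description and no support. Fbxo15, an Oct4 and Sox2 target whose loss leaves mouse stem cells viable, stood at 12.8, 11.7, 28.7 and 26.3 RPKM at d21 in SC1 to SC4, against 1.67, 0.96, 1.62 and 0.7 RPKM at d14. SI1 to SI4 had 17.1, 19.4, 6.96 and 10.3 RPKM at d21, against 4.48, 0.86, 0.25 and 1.87 RPKM at d14. It rose by 3.15 ± 0.31 (SE, limma adjusted p = 0.00129) in SC and 2.46 ± 0.31 (SE, limma adjusted p = 0.00695) in SI, so a pluripotency gene moved in each class. Slc2a3, a glucose transporter, rose by 1.72 ± 0.22 (SE, limma adjusted p = 0.00190) in SC and 1.78 ± 0.22 (SE, limma adjusted p = 0.00695) in SI, and the homeobox gene Nkx2-3 by 2.14 and 2.13. Nkx2-3 was at 0.15 RPKM or under in iPS cells. All 8 clones moved up in 1841 genes (14.9%) and down in 1850 (15.0%).

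Values after 27 days with the drug set the interval in context. Lin28a at d27 ran from 1.39 to 57.3 RPKM in SC clones and from 0.18 to 0.43 RPKM in SI clones. Lefty2 ran from 3.27 to 328 RPKM in SC clones and from 0.66 to 2.07 RPKM in SI clones, and Dnmt3l from 0.48 to 38.4 RPKM in SC clones and from 0.09 to 0.22 RPKM in SI clones. Cd80 ran from 2.66 to 4.91 RPKM in SC clones and from 5.71 to 8.36 RPKM in SI clones. Of the 8 genes with the largest positive differences, Lefty1 and Tex19.1 overlapped between the classes at d27. The 8 were chosen by lack of overlap in the same clones, and the share of all genes without overlap at d27 is not given here. Their d27 levels are therefore a description and no support. Isg15 at d27 ran from 2.2 to 47.8 RPKM in SC clones and from 14.0 to 33.7 RPKM in SI clones, with overlap.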

How the data were processed

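RNA was sequenced from Illumina TruSeq libraries, per the labels' protocols. The values used are 1 table of RPKM per gene, deposited by the authors, with the unit read from the values. The submitters' processing notes name CASAVA 1.8 and the build mm9, with no role given, and no aligner or annotation is given in the sources used here. Of 22632 genes, 12325 with at least 1 RPKM in at least 4 of the 16 libraries were tested. The pseudocount was 1 RPKM. limma 3.58.1 in R 4.3.3 was fitted to the 8 per-clone changes with a mean per class, empirical Bayes moderation with a trend on mean level, and two-sided Benjamini-Hochberg adjustment over all 12325 genes at 0.05. The script was tested on simulated data. Positions and sizes used exact permutation tests over clones (Python 3.11.15, scipy 1.17.1). The SE and p measure the spread between clones.

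Pairing d21 with d14 of the same clone is built into the change. Deviations of the 2 libraries of a clone from their group means correlated at 0.210 to 0.384 in SC clones and at -0.359 to 0.727 in SI clones, with SI2 the negative one. Named genes were 9 tested genes always named, the 8 largest positive and 8 largest negative differences among expressed genes without overlap, the 4 rises and 4 falls shared by all 8 clones whose smallest change was largest, and the 2 smallest p-values of each list, and further list members were named after their values were seen. The comparison, the 30 gene lists and the tests were chosen with earlier results of these data known. Of 502 list entries 498 were found and 436 tested, and the other 4 were not analysed here. Gene symbols came from GENCODE M21 for 20750 IDs, and promoter windows from RefSeq on GRCm38.p6, a build other than mm9, were used for their letters alone.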

Additional observations from a re-analysis of the deposited data

Results flagged for a closer look

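A clone far from the other 3 of its class was found in 9 of 166 groups of 4 changes examined, where chance gives about 5%. The values are log2 changes, d21 minus d14. SI2 was the clone in 5 of them: Rtkn at 0.65, Wdr54 at 0.66, Nat8f6 at 1.46, Cbx7 at 1.48 and Cdh3 at -1.21. SI4 stood apart in Tex19.1 at -0.58. Among SC clones, SC4 stood apart in Fgfr1 at -1.29, SC1 in Pfkp at 0.82 and SC3 in Tubb3 at -0.29. Rtkn and Wdr54 are neighbours and moved alike.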

How the results depend on the processing

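No gene was called for the class difference by limma under any alternative except without SC2 (range 0 to 6 over the fits that left out a clone), and genes at an unadjusted p under 0.05 numbered 577 as reported and 209 to 1780 over the alternatives. The SC count ran from 2429 to 5155 and the SI count from 491 to 2675 over the fits that left out 1 clone each, and the SI count was 848 with no filter and 1 with no replicate block. With no replicate block, the position difference taken from d14 levels alone was -0.045, and with SI1 and SI4 left out the size difference was -0.0542. Of 79 named genes 69 kept the sign of their class difference in all settings and 10 did not. With SI1 and SI4 left out it reversed to -0.17 for Sox2, -0.13 for Nanog, -0.77 for Nkx2-3, 0.16 for Ifit1 and 0.13 for Ereg, and with a pseudocount of 0.1 to -0.00369 for Esrrb. Over the fits that left out 1 clone the difference ran from -0.25 to 0.18 for Pou5f1, -0.20 to 0.72 for Esrrb, -0.38 to 0.39 for Cdh1, -0.23 to 0.23 for Slc2a3, -0.27 to 0.27 for Nkx2-3 and -0.36 to 0.069 for Map2. The cause of these shifts was not tested. Depth was known only up to a whole multiple, which limits what can be said of genes under about 1 RPKM.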
